A study of Mus musculus with 12 samples.

Results

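Siglec1, Siglece, Siglecg and Cd33 encode 4 members of the Siglec family, cell-surface lectins that bind sialic acid. They were taken as the probes whose RefSeq identifier maps to these symbols and are 4 of the 22911 named genes on the array. All 4 were among the 13283 genes tested. The members were chosen by these measured levels in all 4 groups of arrays, so their values and differences are given as a description, with no p-value.

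RNA came from macrophages of the abdominal cavity of C57/BL6 mice that were WT or GPR15 KO; GPR15 is a G protein-coupled receptor. All cells were kept in DMEM with 10% FBS and were given PBS or LPS, the bacterial lipopolysaccharide, at 100 ng/ml for 4 h. The 4 groups were WT with PBS, WT with LPS, KO with PBS and KO with LPS, each measured on 3 one-colour Agilent arrays. The labels do not say whether the arrays of a group came from separate mice or cultures, so the spread between arrays may be technical.

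Siglecs read sialic acids, the acidic sugars that cap the glycans of host cells. Most of them carry inhibitory motifs in the cytoplasmic tail, which recruit the phosphatases SHP-1 and SHP-2 and restrain activating receptors on macrophages, neutrophils and B cells. Siglec1 (sialoadhesin, CD169) lacks these motifs, captures sialylated particles on macrophages and is a known interferon-inducible gene. Siglece is an inhibitory receptor of mouse neutrophils and macrophages, Siglecg restrains B-cell receptor signalling and recognises the sialylated protein CD24, and Cd33 is the mouse counterpart of the human myeloid marker CD33.

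Levels are log2 signal relative to the 75th percentile of the same array, and groups are given as mean ± SD with n = 3. Differences are on the same log2 scale, given ± the standard error of the limma fit over all 12 arrays, and a gene was called past an adjusted p of 0.05 over the 13283 genes. For the members a call, or the lack of it, is a description and not a test. The 10 macrophage markers were well above background on every array and summed to between 9.323 and 9.512 (log2) across the 12 arrays. Single markers moved under that sum: with LPS 6 of the 10 were lower in each genotype, among them Csf1r, the CSF-1 receptor (-1.28 in WT and -1.13 in KO), while Cd14, the LPS co-receptor, was higher by 0.48 in both. The single Gpr15 probe rose well above background on none of the 12 arrays, so it does not check the KO label. Xist was well above background on 6 of 6 WT and 0 of 6 KO arrays, and the Y-linked genes Ddx3y, Kdm5d and Uty on 0 of 6 WT and 6 of 6 KO arrays (Eif2s3y on 1 of 6 and 6 of 6), so genotype and sex cannot be told apart. Of the KO arrays, PBS replicates 1 and 2 were on slide 1 with every WT array, while PBS replicate 3 was on slide 2 with those given LPS. WT and KO after LPS therefore share no slide, and values within a slide are given where they exist.

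The RefSeq promoter table (build GRCm38.p6) held 3 of the 4 genes. Siglecf, another Siglec, lies beside them on chromosome 7 and is printed to show the runs it shares with Cd33. Each window runs from 250 bases before to 50 after the annotated start, 5′ to 3′ on the gene's strand. Capitals mark runs of at least 10 bases that Cd33 and Siglecf share.
Siglecg: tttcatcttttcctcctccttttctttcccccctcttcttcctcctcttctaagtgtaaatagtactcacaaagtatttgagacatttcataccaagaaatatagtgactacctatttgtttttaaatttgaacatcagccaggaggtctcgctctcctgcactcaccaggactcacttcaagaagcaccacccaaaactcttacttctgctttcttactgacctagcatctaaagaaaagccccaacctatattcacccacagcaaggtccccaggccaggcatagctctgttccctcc
Siglece: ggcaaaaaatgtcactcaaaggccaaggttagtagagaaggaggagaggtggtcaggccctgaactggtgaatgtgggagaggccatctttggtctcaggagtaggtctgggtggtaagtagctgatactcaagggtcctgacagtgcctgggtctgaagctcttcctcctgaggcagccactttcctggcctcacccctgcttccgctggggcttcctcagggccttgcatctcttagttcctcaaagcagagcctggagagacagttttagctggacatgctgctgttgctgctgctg
Cd33: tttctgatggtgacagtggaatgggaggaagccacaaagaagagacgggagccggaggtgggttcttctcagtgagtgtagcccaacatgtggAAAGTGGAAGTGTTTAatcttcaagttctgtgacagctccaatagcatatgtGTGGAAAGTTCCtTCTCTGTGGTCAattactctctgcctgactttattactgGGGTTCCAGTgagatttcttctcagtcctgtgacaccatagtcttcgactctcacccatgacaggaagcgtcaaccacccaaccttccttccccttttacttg
Siglecf: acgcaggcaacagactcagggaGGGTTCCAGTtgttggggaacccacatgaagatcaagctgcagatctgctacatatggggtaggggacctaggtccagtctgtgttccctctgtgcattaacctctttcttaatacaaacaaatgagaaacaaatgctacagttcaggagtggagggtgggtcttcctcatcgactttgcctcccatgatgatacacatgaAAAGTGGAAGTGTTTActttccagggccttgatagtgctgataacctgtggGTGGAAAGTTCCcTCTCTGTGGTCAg
These windows lie at chr7:43407989-43408288 on the plus strand for Siglecg, chr7:43660112-43660411 on the minus strand for Siglece, chr7:43533122-43533421 on the minus strand for Cd33 and chr7:43351091-43351390 on the plus strand for Siglecf. Cd33 and Siglecf shared 4 such runs with 50 bases in all and a longest run of 16, while the longest run shared by any other pair of these genes was 8 to 10 bases. Motifs were searched on both strands of the 3 member windows. The PU.1 core GGAAGTG, held by 11% of the 32851 RefSeq promoters, was found in Cd33, within its longest run in common with Siglecf, at position -152 relative to the start, and not in the windows of Siglece or Siglecg. The interferon-stimulated response element core, GAAA and GAAA with any 2 bases between (3.44% of promoters), the AP-1 site TGANTCA (7.81%) and a kappaB site, GGG and TTCC with any 3 bases between (5.56%), were found in none of the 3 windows.

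Siglec1 was the member with the widest span, and its order of group means was WT with LPS, WT with PBS, KO with PBS and KO with LPS. In WT cells its level was -1.34, -1.32 and -1.24 with PBS and -0.67, -0.62 and -1.04 with LPS. In KO cells it was -2.02, -2.21 and -2.38 with PBS and -3.02, -2.68 and -2.64 with LPS. The 6 WT arrays all lay above the 6 KO arrays, and no neighbouring pair of groups in that order overlapped. All 12 arrays had this probe well above background, with signals from 60.17 to 305.5.

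The group means of Siglec1 were -1.30 ± 0.06 in WT with PBS, -0.78 ± 0.23 in WT with LPS, -2.20 ± 0.18 in KO with PBS and -2.78 ± 0.21 in KO with LPS. Siglec1 was therefore 0.52 ± 0.14 higher with LPS in WT and 0.58 lower with LPS in KO (-0.58 ± 0.14). KO cells had 0.90 less of it than WT with PBS (-0.90 ± 0.14) and 2.00 less after LPS (-2.00 ± 0.14), a 4.01-fold gap. The response to LPS in KO less that in WT was -1.10 ± 0.20.

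The Siglec1 differences kept their sign within a slide and with slide as a term. Within slide 1, Siglec1 in PBS was 0.82 lower in KO than in WT (-0.82), close to the value over all arrays. Within slide 2, the 3 KO LPS arrays were 0.40 below the single KO PBS array (-0.40). With normexp background correction, a choice unrelated to the slides, the difference with LPS in KO over all arrays was -0.23. A model with slide as a term gave -1.74 for KO against WT after LPS and -0.92 for the difference of responses. The second Siglec1 probe did not rise well above background on any of the 12 arrays (signals 4.794 to 11.91) and gives no measure of the gene.

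**Figure D1:**
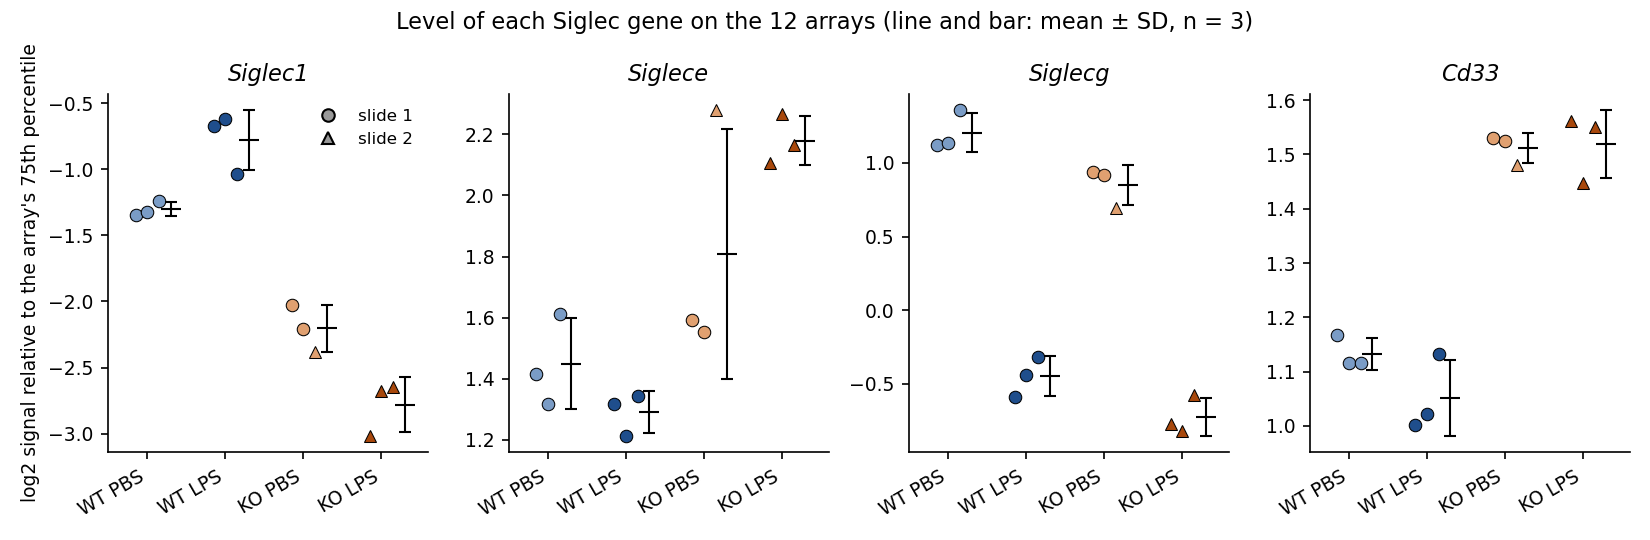
Level of Siglec1, Siglece, Siglecg and Cd33 (y axis, log2 signal relative to the array's 75th percentile, a separate scale for each gene) on each array of the 4 groups (x axis), with circles for slide 1, triangles for slide 2, and bars for mean ± SD, n = 3. Siglec1 and Cd33 separate by genotype, Siglecg separates by LPS, and in Siglece KO PBS replicate 3 (2.28) sits beside the KO LPS arrays.

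Because Siglec1 is interferon-inducible, it was set beside 22 interferon-stimulated genes, of which 20 could be tested. With LPS in WT, 20 of 20 rose (median difference 2.54), among them Cxcl10, a chemokine, by 4.72 ± 0.13 (limma, adjusted p = 1.95e-10). In KO, 16 of 20 rose with LPS and 0 fell by limma, also at an unadjusted p under 0.05, with a median of 0.67. With PBS, 20 of 20 were higher in KO than in WT (median 0.76), whereas Siglec1 was lower there in every KO array. After LPS, 20 of 20 were lower in KO (median -0.81) and Siglec1 was also lower. For all 20 the response to LPS was smaller in KO than in WT (median -1.5), with Oasl2, an oligoadenylate synthetase-like antiviral gene, at -1.68 ± 0.10 (limma, adjusted p = 8.14e-06) and the sensor gene Ifih1 at -1.03 ± 0.11 (limma, adjusted p = 0.000152). Median differences over all 13283 genes were 0.0271, 0.04, 0.00965, -0.00994 and -0.00786 in the same order of comparisons. Siglec1 thus had the sign of the interferon-stimulated genes in WT with LPS and in KO against WT after LPS, and the opposite sign in KO against WT with PBS. With LPS in KO it was lower where 16 of the 20 rose.

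**Figure D2:**
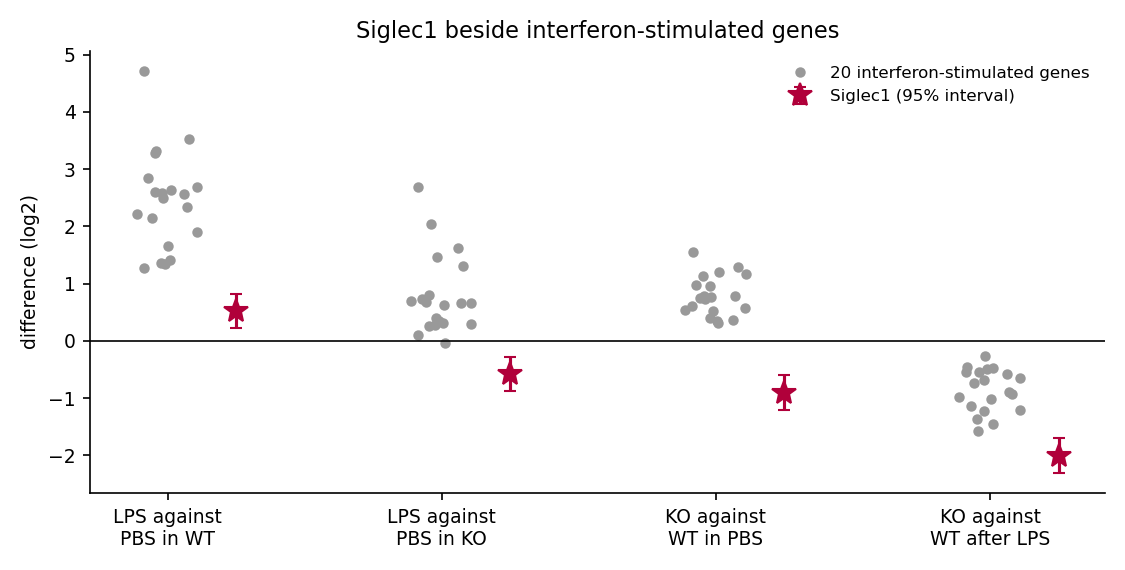
Difference in log2 level (y axis) for Siglec1 (star, with its 95% interval) and for 20 interferon-stimulated genes (grey points, spread sideways for legibility) in each of 4 comparisons (x axis). In KO against WT with PBS the 20 genes lie above 0 and Siglec1 lies at -0.90, while after LPS the genes and Siglec1, at -2.00, all lie below 0.

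The genes whose profile over the 12 arrays was most like that of Siglec1, by the root-mean-square difference of centred profiles, were Cables1 (0.206), Eaf2 (0.211), the complement gene C2 (0.263), Scd1 (0.367) and Sidt1 (0.376). C2 had group means of 0.86 in WT with PBS, 1.29 in WT with LPS, -0.26 in KO with PBS and -0.26 in KO with LPS. Eaf2 had the same order of groups as Siglec1, from 4.50 in WT with LPS and 4.32 in WT with PBS to 3.14 in KO with PBS and 2.80 in KO with LPS. None of the 20 interferon-stimulated genes was among these 5.

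Siglecg, the B-cell-associated inhibitory receptor, had the largest response to LPS of the 4 genes. Its level was 1.12, 1.14 and 1.36 in WT with PBS and -0.59, -0.44 and -0.32 in WT with LPS. In KO it was 0.94, 0.92 and 0.69 with PBS and -0.77, -0.82 and -0.58 with LPS. All 6 PBS arrays lay above all 6 LPS arrays. The order of group means was WT with PBS (1.21 ± 0.13), KO with PBS (0.85 ± 0.14), WT with LPS (-0.45 ± 0.14) and KO with LPS (-0.73 ± 0.13), and only the last 2 of these groups overlapped.

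With LPS, Siglecg was lower by 1.66 in WT (-1.66 ± 0.10, 3.15-fold) and by 1.58 in KO (-1.58 ± 0.10, 2.98-fold), and the responses differed by 0.08 ± 0.14. The 95% interval of that difference ran from -0.23 to 0.39. Within slide 2 the difference with LPS in KO was -1.42. The second Siglecg probe, well above background on 11 of 12 arrays, gave -2.06 ± 0.19 in WT and -1.60 ± 0.19 in KO.

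The genotype differences of Siglecg were small beside its response to LPS. KO was 0.36 lower than WT with PBS (-0.36 ± 0.10) and 0.28 lower within slide 1 (-0.28). With any 1 of these 6 arrays left out it ran from -0.40 to -0.28 and did not pass the threshold. After LPS the difference was -0.28 ± 0.10 over all arrays, -0.04 with slide as a term and 0.11 by the second probe, so its sign differed between the 2 probes.

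Markers of B cells moved with Siglecg. All 12 listed B-cell markers were tested and were well above background on every array of every group. Their summed level (log2) was 7.258 to 7.594 in WT with PBS and 6.306 to 6.559 in WT with LPS. In KO it was 6.965 to 7.037 with PBS and 5.991 to 6.04 with LPS. In bulk RNA, fewer cells of a type and less RNA per cell cannot be told apart.

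With LPS, 8 of the 12 B-cell markers fell and 1 rose in WT, and 9 fell and 1 rose in KO. Among all genes 31.0% fell and 33.7% rose in WT, and 32.0% and 35.1% in KO. Cd79b, a signalling chain of the B-cell receptor, fell by 2.09 in WT (-2.09 ± 0.13, limma, adjusted p = 4.26e-08) and by 2.44 in KO (-2.44 ± 0.13, adjusted p = 1.61e-08). Fcer2a, the low-affinity IgE receptor CD23, was the marker that rose, by 1.40 ± 0.18 in WT and 2.10 ± 0.18 in KO. KO had lower levels than WT of 8 of 12 markers with PBS and 6 of 12 after LPS, with 0 higher by limma, also at an unadjusted p under 0.05. The share of all genes lower in KO was 6.05% with PBS and 19.5% after LPS. By profile, Cd79a, the partner chain of Cd79b, was the B-cell marker nearest to Siglecg (0.142) and Fcer2a the farthest (1.702). The part of the B-cell markers in the Siglecg differences was not tested.

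**Figure D3:**
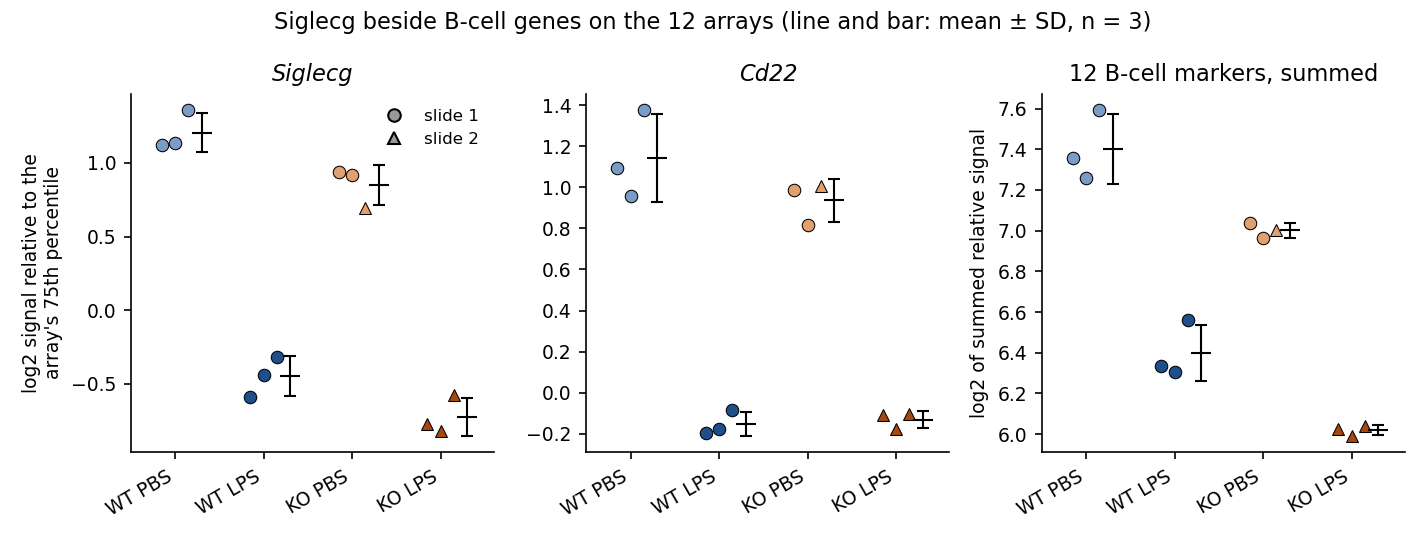
Level on each array (y axis, log2) of Siglecg, of the B-cell Siglec gene Cd22 and of 12 B-cell markers summed, in the 4 groups (x axis), with circles for slide 1, triangles for slide 2, and bars for mean ± SD, n = 3. In all 3 panels every PBS array lies above every LPS array, and the summed markers run from 7.594 in a WT PBS array down to 5.991 in a KO LPS array.

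The profiles most like that of Siglecg were those of Smarca2 (0.07), which encodes a chromatin remodelling ATPase, Haus5 (0.083), Wbp1 (0.093), Habp4 (0.107) and Atp2a3 (0.109), a calcium pump. Smarca2 had group means of 1.15 in WT with PBS, -0.56 in WT with LPS, 0.86 in KO with PBS and -0.74 in KO with LPS.

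Siglece, the inhibitory receptor of neutrophils and macrophages, was higher in KO than in WT after LPS, and its values also differed between slides within the KO PBS group. In WT its level was 1.42, 1.32 and 1.61 with PBS and 1.32, 1.21 and 1.34 with LPS. In KO it was 1.59, 1.55 and 2.28 with PBS and 2.11, 2.27 and 2.17 with LPS. KO PBS replicate 3, the only PBS array on slide 2, lay above every KO LPS array, while the other KO PBS arrays lay among the WT PBS arrays. In order, the means were 2.18 ± 0.08 in KO with LPS, 1.81 ± 0.41 in KO with PBS, 1.45 ± 0.15 in WT with PBS and 1.29 ± 0.07 in WT with LPS, and each neighbouring pair overlapped.

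KO exceeded WT in Siglece by 0.89 ± 0.16 after LPS (1.85-fold) with no overlap, and by 0.18 with slide as a term. With PBS the difference was 0.36 ± 0.16 over all arrays and 0.12 within slide 1. With LPS, Siglece differed by 0.37 ± 0.16 in KO over all arrays, by -0.10 within slide 2 and by 0.61 without KO PBS replicate 3. In WT the difference was -0.16 ± 0.16, with a 95% interval from -0.50 to 0.18, and with the replicate number as a block the same -0.16 lay past the threshold.

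The genes most like Siglece were chosen for likeness over these same 12 arrays, so their values are a description and the place of KO PBS replicate 3 among them follows from the choice. Among the 5 nearest were Kcnd1 (0.053), Lst1 (0.071), Zcchc24 (0.077) and Psg29 (0.079). Lst1, a myeloid membrane gene, was at 1.65 and 1.66 in KO PBS replicates 1 and 2, at 2.40 in replicate 3 and between 2.36 and 2.40 in the KO LPS arrays. In these 4 genes KO PBS replicate 3 lay above both other KO PBS arrays.

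Siglece is also a neutrophil gene, so neutrophil markers are given beside it. Of 8 listed markers 5 were tested, Ly6g had no probe matched, and Ngp and Ltf did not pass the background filter. Their summed level was 1.639 to 2.04 in WT with PBS, 2.022 to 3.358 in WT with LPS, 2.537 to 3.178 in KO with PBS and 2.98 to 3.321 in KO with LPS. In KO against WT, 2 of the 5 were called higher and 0 lower by limma in each condition, also 0 lower at an unadjusted p under 0.05. All genes had 8.06% higher and 6.05% lower with PBS, and 20.0% and 19.5% after LPS. S100a9, a calprotectin subunit, was higher in KO by 2.64 with PBS (limma, adjusted p = 0.00562) and by 2.33 after LPS (adjusted p = 0.00436). Its partner subunit S100a8 differed by 0.77 (adjusted p = 0.165) and -0.16 (adjusted p = 0.749) and was not called. KO PBS replicate 3 had the highest sum of the KO PBS arrays, 3.178. The part of these markers in the Siglece difference was not tested.

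Cd33 was higher in KO than in WT and nearly level with LPS. In WT its level was 1.17, 1.12 and 1.12 with PBS and 1.00, 1.02 and 1.13 with LPS. In KO it was 1.53, 1.52 and 1.48 with PBS and 1.56, 1.45 and 1.55 with LPS. Every KO array lay above every WT array, and within each genotype the PBS and LPS arrays overlapped. The means were 1.52 ± 0.06 in KO with LPS, 1.51 ± 0.03 in KO with PBS, 1.13 ± 0.03 in WT with PBS and 1.05 ± 0.07 in WT with LPS.

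The genotype gap of Cd33 was 0.38 ± 0.05 with PBS (1.30-fold) and 0.47 ± 0.05 after LPS (1.38-fold). Within slide 1 the gap with PBS was 0.39, and with slide as a term the gap after LPS was 0.51, so the slides moved it little. Of 10 macrophage markers, 2 were called higher in KO and 0 lower with PBS by limma (4 and 1 at an unadjusted p under 0.05). Of all genes tested, 8.06% were higher and 6.05% lower there. After LPS 3 of the 10 were higher and 1 lower, beside 20.0% and 19.5% of all genes. Adgre1, the gene of a macrophage surface antigen, was higher in KO by 0.40 with PBS and 0.32 after LPS, and Itgam, an integrin gene of myeloid cells, by 0.28 and 0.53. Fcgr1, another of the 10, lay the other way. Its means were 2.74 in WT and 0.76 in KO after LPS, and its difference with PBS was -0.31 and not called. The part of these markers in the Cd33 gap was not tested. The difference with LPS was -0.08 ± 0.05 in WT, with a 95% interval from -0.19 to 0.03, and 0.01 ± 0.05 in KO, with an interval from -0.10 to 0.12. Cd33 thus had the smallest LPS differences of the 4 genes. The nearest profiles were those of Enox2 (0.06), Them4 (0.075), the interferon-inducible gene Ifi27 (0.075), Mfsd1 (0.079) and Mtpn (0.086).

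**Figure D4:**
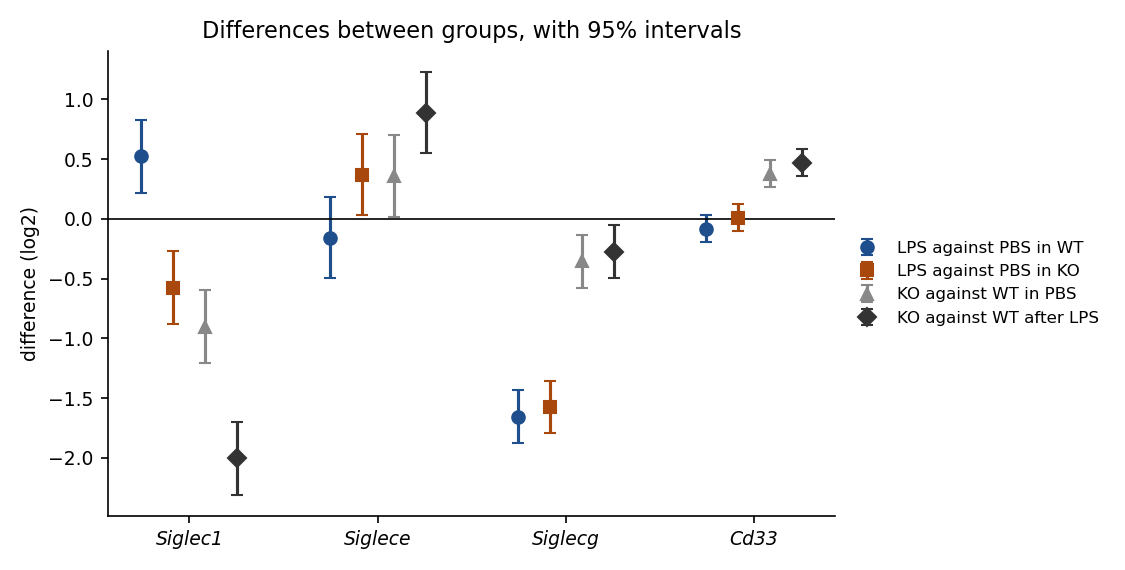
Difference in log2 level (y axis) in 4 comparisons for Siglec1, Siglece, Siglecg and Cd33 (x axis), with error bars for the 95% interval of the limma fit. Siglec1 has intervals on opposite sides of 0 for LPS in WT and in KO, Siglecg lies at -1.66 and -1.58 for LPS in WT and KO, and the Cd33 intervals lie above 0 for KO against WT and include 0 for LPS in WT and in KO.

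Among the 4 genes the nearest profiles were those of Siglece and Cd33, with a root-mean-square difference of 0.259, and the other 5 pairs lay between 0.877 and 1.15. With LPS in WT 2 members were called, beside 64.7% of all genes tested, 1 higher (33.7% of all genes) and 1 lower (31.0%). With LPS in KO 2 were called (67.0%), 0 higher (35.1%) and 2 lower (32.0%). In KO against WT with PBS 3 were called (14.1%), 1 higher (8.06%) and 2 lower (6.05%), and after LPS 4 were called (39.5%), 2 higher (20.0%) and 2 lower (19.5%). For the difference of responses 1 was called (4.31%), 0 higher (0.926%) and 1 lower (3.39%). These arrays chose the members, so nothing is read from the counts.

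The other genes of sialic acid biology on the array were listed by role. Of 64 genes 56 were tested, 14 rose and 27 fell with LPS in WT, with a median difference of -0.18, and 15 rose and 27 fell in KO, with a median of -0.22. Between genotypes, 10 were higher and 3 lower in KO with PBS and 11 higher and 7 lower after LPS, where 2 were called higher and 2 lower with slide as a term, and 14 lower with median scaling. All 13283 genes had 33.7% higher and 31.0% lower with LPS in WT, 35.1% and 32.0% in KO, 8.06% and 6.05% between genotypes with PBS, and 20.0% and 19.5% after LPS. The count of 3 lower with PBS was 0 without WT PBS replicate 1 or KO PBS replicate 1, 1 without WT PBS replicate 2 or KO PBS replicate 2, and 5 without WT PBS replicate 3. For 4 of the 56 the response was lower in KO than in WT, and for 0 it was higher. The 4 became 2 without KO PBS replicate 1 or KO LPS replicate 1, and 7 without KO PBS replicate 3. At an unadjusted p under 0.05, 2 of the 56 had a higher response in KO by the same limma fit.

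**Figure D5:**
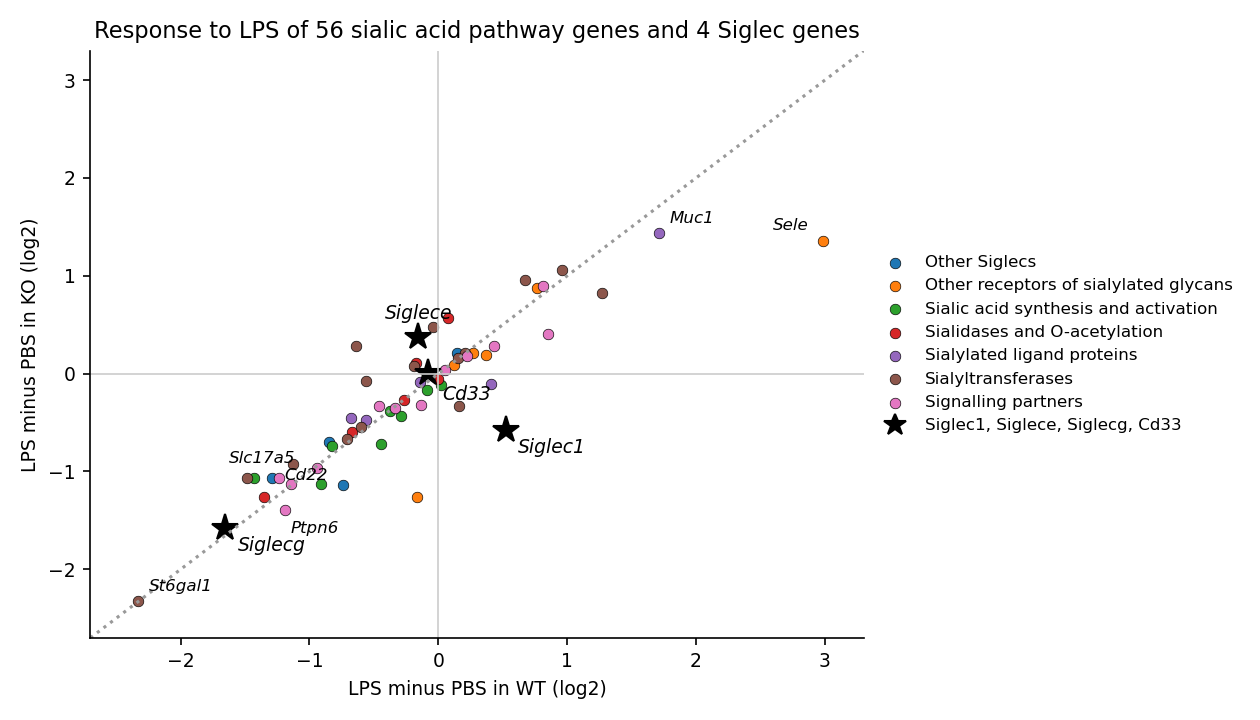
Difference with LPS in KO (y axis, log2) against that in WT (x axis, log2) for 56 sialic acid pathway genes coloured by role and for the 4 Siglec genes (stars), where the dotted line marks equal differences. Siglecg lies near the line at -1.66 and -1.58, and Siglec1 lies below it at 0.52 and -0.58. Sele, at the far right, was well above background on 3 of the 6 WT arrays, and its position there is the fitted value.

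Of the other Siglec genes 4 of 5 were tested, and Siglec15 did not pass the background filter. Cd22, a Siglec of B cells, ran beside Siglecg and fell with LPS by 1.29 in WT (-1.29 ± 0.09, limma, adjusted p = 1.98e-07) and by 1.07 in KO (-1.07 ± 0.09, adjusted p = 1.27e-06). Siglecf, the Siglec of mouse eosinophils and alveolar macrophages, fell by 0.74 in WT (-0.74 ± 0.24, limma, adjusted p = 0.0177; -0.42 and no longer called without WT LPS replicate 2) and by 1.14 in KO (-1.14 ± 0.24, adjusted p = 0.00127). The eosinophil granule genes Epx, Prg2 and Prg3 did not pass the background filter, and 2 of the 5 listed eosinophil markers were tested. Il5ra rose with LPS by 0.34 in WT (limma, adjusted p = 0.00111) and by 0.75 in KO (adjusted p = 2.18e-06). Ccr3 was not called (0.33 in WT and -0.79 in KO). The part of these markers in the Siglecf differences was not tested. Mag, the myelin Siglec, fell by 0.85 in WT (-0.85 ± 0.13) and by 0.70 in KO (-0.70 ± 0.13), and Siglech, of plasmacytoid dendritic cells, rose by 0.21 ± 0.07 in KO. That call of Siglech was lost without KO PBS replicate 2 (0.16), KO LPS replicate 1 (0.20) or KO LPS replicate 2 (0.21), and the difference was 0.04 with quantile normalization. By limma, 0 of the 4 were called between genotypes in either condition, and 0 of the 4 at an unadjusted p under 0.05. The 3 kept probes of Cd22 disagreed after LPS, where KO less WT was 0.02 by the brightest, -0.82 by another and -3.31 by a dim one.

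Values of Cd33 and Siglecf, whose promoter windows share the 4 runs printed in capitals, are given side by side. With LPS, Cd33 differed by -0.08 in WT and 0.01 in KO, whereas Siglecf fell in both. In KO against WT with PBS the differences were 0.38 for Cd33 and 0.42 ± 0.24 for Siglecf, the latter not passing the test (limma, adjusted p = 0.259). After LPS they were 0.47 for Cd33 and 0.02 ± 0.24 for Siglecf (limma, adjusted p = 0.958). The difference between the 2 genes was not tested.

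Of the 12 signalling partners of Siglecs, 4 were higher and 6 lower with LPS in WT, and 4 higher and 7 lower in KO, beside 33.7% higher and 31.0% lower of all genes in WT and 35.1% and 32.0% in KO. Ptpn6, which encodes the phosphatase SHP-1 recruited by inhibitory Siglecs such as Siglece and Siglecg, fell by 1.19 in WT (-1.19 ± 0.08, limma, adjusted p = 7.37e-08) and by 1.40 in KO (-1.40 ± 0.08, adjusted p = 2.67e-08). Inpp5d, the inositol phosphatase SHIP-1, fell by 1.23 and 1.06 (-1.23 and -1.06). Tyrobp, the adaptor DAP12 used by activating Siglecs, fell by 0.94 and 0.97 (-0.94 and -0.97). With PBS, Fgr, a Src-family kinase of myeloid cells, was higher in KO by 0.52.

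The genes that make and activate sialic acid, the ligand of all 4 receptors, were lower or not called with LPS. By the brightest probe of each gene, 6 of 8 fell in WT and 6 of 8 in KO, with 0 higher by limma, also at an unadjusted p under 0.05. Over all genes 31.0% fell in WT and 32.0% in KO. Cmah was not called by its brightest probe (0.02 in WT and -0.11 in KO). Its other kept probes fell, with -2.59 and -2.66 in WT and -2.86 and -2.80 in KO. Gne, the first enzyme of sialic acid synthesis, fell by 0.91 in WT (-0.91 ± 0.10, limma, adjusted p = 6.8e-06) and by 1.12 in KO (-1.12 ± 0.10, adjusted p = 1.38e-06). That fall was seen by its brightest probe only, as its second kept probe gave 0.01 in WT and 0.03 in KO and was not called. Cmas, which activates sialic acid to its CMP form, fell by 0.82 and 0.74 (-0.82 and -0.74), and Slc17a5, which exports sialic acid from lysosomes, by 1.43 and 1.06 (-1.43 and -1.06). Between genotypes 0 of the 8 were called with PBS, also at an unadjusted p under 0.05. After LPS, where the genotypes share no slide, Slc17a5 was higher in KO by 0.60 and Gne lower by 0.42 (-0.42). Their second kept probes gave 0.20 and -0.37 and were not called.

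Sialyltransferases, which build the linkages that Siglecs discriminate, moved in both directions, as all genes did. With LPS, 4 of 15 tested rose and 6 fell in WT, and 5 rose and 5 fell in KO. The shares of all genes were 33.7% higher and 31.0% lower in WT, and 35.1% and 32.0% in KO. St6gal1, which makes the alpha-2,6 linkage bound by Cd22, fell by 2.33 in WT (-2.33 ± 0.11, limma, adjusted p = 5.78e-09) and by 2.32 in KO (-2.32 ± 0.11, adjusted p = 7.85e-09), but its second kept probe was 0.72 higher in WT and was called in the opposite direction. St3gal5, the GM3 synthase, fell by 1.48 and 1.07 (-1.48 and -1.07), and St3gal2 fell by 1.13 and 0.92 (-1.13 and -0.92). St6galnac4 rose by 1.27 in WT and 0.83 in KO, and St3gal1, which sialylates O-glycans, by 0.96 and 1.06. St8sia6, a polysialyltransferase-family gene, was higher in KO by 0.44 both with PBS and after LPS.

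Of 6 genes tested that remove or modify sialic acid, 3 fell and 0 rose with LPS in WT by limma, also 0 higher at an unadjusted p under 0.05, and 3 fell and 1 rose in KO. Among all genes 31.0% fell and 33.7% rose in WT, and 32.0% and 35.1% in KO. The gene of these 6 that rose in KO was the sialidase gene Neu2 (0.57 ± 0.22), which was well above background on 5 of the 6 KO arrays and was named after its values were seen. Siae, a sialic acid O-acetylesterase, fell by 1.35 in WT (-1.35 ± 0.18, limma, adjusted p = 3.97e-05) and by 1.26 in KO (-1.26 ± 0.18, adjusted p = 7.68e-05). Neu1, the lysosomal sialidase, fell by 0.27 in both (-0.27), and its partner Ctsa by 0.67 and 0.60 (-0.67 and -0.60). Ctsa was higher in KO than in WT by 0.34 with PBS and 0.41 after LPS, the direction of Cd33 and Siglece, and the call with PBS was lost without WT PBS replicate 1 (0.31) or replicate 2 (0.27).

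Of 5 proteins known to carry Siglec ligands, 2 rose and 3 fell with LPS in WT, beside 33.7% and 31.0% of all genes. Cd24a, which encodes the Siglecg ligand CD24, fell by 0.67 in WT (-0.67 ± 0.15, limma, adjusted p = 0.00146) and by 0.45 in KO (-0.45 ± 0.15, adjusted p = 0.0161). Spn, which encodes CD43, a counter-receptor of Siglec1, fell by 0.56 and 0.48 (-0.56 and -0.48) by its brightest probe. Another kept probe also fell (-0.87 and -0.73), while a further one gave -0.06 in WT and 0.30 in KO and was not called. Muc1, a mucin bound by Siglec1, rose by 1.71 ± 0.18 in WT. It also rose by 1.43 ± 0.18 in KO, where 5 arrays had it well above background. It was lower in KO than in WT by 0.63 with PBS (-0.63), a call lost in 4 leave-one-out settings. After LPS, where the genotypes share no slide, it was lower in KO by 0.91 (-0.91). Selplg, which carries the ligand of P-selectin, rose by 0.41 in WT and differed by -0.10 in KO, and the responses differed by -0.52 ± 0.09 (limma, adjusted p = 0.00707).

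Other receptors of sialylated glycans were called higher with LPS in 4 of 6 cases in WT, and 3 were higher and 1 lower in KO. All genes had 33.7% higher in WT, and 35.1% higher and 32.0% lower in KO. Pilra, an inhibitory receptor, and the activating receptors Pilrb1 and Pilrb2 were higher in KO with PBS by 0.55, 0.36 and 0.51 and after LPS by 0.36, 0.30 and 0.47, as Cd33 was. Sele, which encodes E-selectin, is among the called genes, but it was well above background on 3 of the 6 WT arrays, so no fold is given, and it was named after its values were seen.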

How the data were processed

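The 12 one-colour arrays were deposited as scanner output. Signal intensity, per the file headers Agilent's processed signal after background subtraction, was used as deposited, together with the deposited marks for control spots, outliers and signal well above background. The scans came from Agilent Feature Extraction 11.5.1.1, per the submitters' processing notes. Control spots and outlier spots were left out, signal was divided by the 75th percentile of its array and log2 was taken. A probe was kept where 1 group or more had it well above background on each of its 3 arrays (28827 probes), and the brightest kept probe stood for each of 13283 genes, named through RefSeq identifiers.

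Levels were compared with limma 3.58.1 in R 4.3.3 (trended eBayes over all 4 groups, Benjamini-Hochberg over all genes), which was tested on simulated data first. Normexp, an alternative, was run on the median signal. The 4 Siglec genes and all lists were chosen with earlier results of these data known. Genes named from a list were the 4 of smallest p among those called and well above background on all arrays compared, or up to 2 where none was called. A gene picked for any comparison could be given in the others. Cd14 and Cmah were named without being picked by this rule. The 5 nearest profiles of each member leave out clone and predicted names. Values of some listed genes are not reported here, though they stay in the counts. The second probe of Siglec1 and Siglecg and the slide 2 arrays alone were alternatives chosen after seeing the data.

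To see whether replicate numbers pair the arrays, deviations from the group means were correlated. In WT, LPS and PBS arrays of 1 number correlated at 0.105, 0.371 and 0.481, all over the limit of 0.1. They were taken as paired from the data and not from the labels, though PBS array 1 correlated more with an LPS array of another number. In KO the correlations were 0.04, 0.113 and 0.081, and between genotypes they lay between -0.102 and 0.017. The main fit used no pairing, and the replicate block was an alternative setting. The signals carry no read depth, so the number of arrays limits the precision. On each array 48.8% to 57.1% of spots were well above background and 0 were saturated.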

Additional observations from a re-analysis of the deposited data

Results flagged for a closer look

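The response to LPS differed between KO and WT for the 10 listed genes given here in the limma interaction test over all genes, with values in log2 as the response in KO less that in WT. Siglec1 was chosen on these same values, so its -1.10 is a description and not a test, and it was -0.92 and short of the threshold with slide as a term. Among genes of sialic acid biology it was -0.52 for Selplg. Among interferon-stimulated genes it was -0.95 for Isg15, -1.28 for Oasl1, -1.68 for Oasl2, -1.52 for Irf7, -2.02 for Cxcl10, -2.10 for Usp18, -1.03 for Ifih1, -1.35 for Bst2 and -1.48 for Xaf1. The 11 values are all negative, but they are only part of the calls. Over all genes 123 were called higher and 450 lower, and of the 12 B-cell markers 1 was called higher and 0 lower. Groups of 3 arrays were not searched for outlying arrays.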

How the results depend on the processing

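Of 222 values of the 4 Siglec genes under another setting with all replicates, 194 kept direction and side of the threshold, and of 144 with 1 array left out, 132 did. These arrays chose the 4 genes, so passing or missing the threshold describes each setting and is not a test. With LPS in WT, Siglece passed the threshold with the replicate block (-0.16) and Cd33 with quantile normalization (-0.14). With LPS in KO, Siglec1 fell short with normexp (-0.23), with slide as a term and with slide 2 arrays alone (-0.40 in both), and Siglece passed with median scaling (0.35) and without KO PBS replicate 3, with leave-one-out values from 0.24 to 0.61.

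With PBS, the replicate block removed the calls of KO against WT for Siglec1 (-0.90), Siglecg (-0.36) and Cd33 (0.38). Siglecg also fell short without the filter on dim probes and without trend (-0.36 in both), with the mean of its probes (-0.35), with slide as a term or slide 1 alone (-0.28 in both) and in every leave-one-out setting (-0.40 to -0.28). After LPS, Siglece fell short with slide as a term (0.18), and Siglecg with normexp (-0.24), no filter and no trend (-0.28 in both), the mean of its probes (-0.082), slide as a term (-0.040) and 4 leave-one-out settings (without WT LPS replicate 2 or 3, or KO LPS replicate 1 or 2, from -0.35 to -0.21 over all 6). For the difference of responses, Siglec1 fell short with slide as a term (-0.92), and leave-one-out values of Siglece ran from 0.40 to 0.76, the latter past the threshold without KO PBS replicate 3. The other Siglec1 probe gave 0.50, 0.027, -0.12, -0.59 and -0.48 in the 5 comparisons, and the other Siglecg probe -0.35 and 0.11 for genotype with PBS and after LPS.

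The count of sialic acid pathway genes called moved from 15 to 9 higher for LPS in KO with slide as a term. For genotype with PBS it moved from 10 to 1 higher and from 3 to 0 lower with the replicate block, to 0 lower without the filter and to 1 lower with the mean of probes, with leave-one-out counts of 7 to 12 higher and 0 to 5 lower. After LPS it moved from 11 to 2 higher and from 7 to 2 lower with slide as a term, and to 14 lower with median scaling. For the difference of responses, leave-one-out counts ran from 0 to 2 higher and from 2 to 7 lower. The mean of probes reversed St6gal1 for genotype with PBS (0.18), and normexp and the mean of probes reversed Cd22 after LPS (-0.67 and -1.37).

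Over all genes, genotype called 1874 with PBS and 216 with the replicate block, 1087 with slide 1 alone and 917 to 2579 with 1 array left out. After LPS it called 5242, and 776 with slide as a term. Median scaling moved the median of all genes after LPS to -0.117 and the split from 2653 higher and 2589 lower to 1729 and 4003, and with PBS from 1070 and 804 to 659 and 861. The interaction called 573, with leave-one-out counts from 360 to 2797, the latter without KO PBS replicate 3. The causes were not tested.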
